A study of Mus musculus with 24 samples.

Results

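The 43 genes described here encode ribosome biogenesis factors, the nucleolar proteins that make, modify and fold ribosomal RNA and assemble it into subunits. They were chosen by symbol, and a gene was kept if its mean over the 24 libraries was at least 1 CPM (counts scaled to library size by TMM). All 43 listed genes were kept, of 13105 genes that met this minimum and 50657 in the files. The genes fall into 5 role groups: 6 for RNA polymerase I and its factor UBTF, 6 abundant nucleolar proteins and regulators, 6 core proteins of small nucleolar RNA particles (snoRNPs), 15 small subunit factors and 10 large subunit factors. RNA was sequenced from whole livers of wild-type mice (WT) and of mice with a knockout of Egfr, the epidermal growth factor receptor gene, restricted to hepatocytes (KO). Acetaminophen was the agent, at 500 mg/kg, and livers were collected at 0, 1, 3 and 12 h from 3 mice in each of the 8 groups of genotype and time. The labels do not say what the 0 h mice were given, no source used here names the Cre driver of the deletion, and the 6 h and 24 h times of the series text were not analysed here. Every mouse at 1, 3 and 12 h had the drug, so in a change from 0 h the drug, the hour of the day and handling cannot be told apart.

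In the nucleolus, RNA polymerase I transcribes the ribosomal RNA precursor from repeated genes that UBTF keeps open. Box C/D and box H/ACA snoRNPs then modify the precursor, the small subunit processome folds and cuts its first part, and a separate set of factors assembles the large subunit. Many of these genes are known targets of the transcription factor MYC, and in the liver they are known to be switched on when hepatocytes grow before they divide.

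MYC and its partner MAX bind the palindrome CACGTG, so promoter stretches of members that hold these letters are shown. RefSeq promoters (build GRCm38.p6, 250 bases before to 50 bases after a transcription start) were found for 38 of the 43 genes, not for Npm1, Fbl, Bop1, Rrp12 and Rrs1. The following 6 stretches carry CACGTG in capitals, from the members with the largest fitted change at 12 h in WT among the 8 that hold it. Of these, Wdr43 and Ltv1 passed the test used below at 12 h in WT, and Tsr1, Utp4, Pes1 and Mybbp1a did not. The Ltv1 call was lost whichever mouse was left out. For Tsr1, 30.76% of the counts given a strand had that of the gene.
Wdr43 (chr17:71616165-71616244, plus strand): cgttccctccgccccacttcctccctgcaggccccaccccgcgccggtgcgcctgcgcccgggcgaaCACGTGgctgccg
Tsr1 (chr11:74898030-74898109, plus strand): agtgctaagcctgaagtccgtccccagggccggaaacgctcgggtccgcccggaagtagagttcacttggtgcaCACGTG
Utp4 (chr8:106893590-106893669, plus strand): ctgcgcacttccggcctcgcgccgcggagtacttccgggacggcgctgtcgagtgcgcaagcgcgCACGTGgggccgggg
Ltv1 (chr10:13193092-13193121, minus strand): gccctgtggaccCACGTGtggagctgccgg
Pes1 (chr11:3963925-3964004, plus strand): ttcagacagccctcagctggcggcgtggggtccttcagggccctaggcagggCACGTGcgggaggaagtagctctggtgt
Mybbp1a (chr11:72441347-72441376, plus strand): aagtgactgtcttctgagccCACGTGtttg

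Counted from the transcription start, the motif began at base 18 in Wdr43, 25 in Tsr1, 16 in Utp4, 29 in Ltv1, 3 in Pes1 and 41 in Mybbp1a, all on the transcribed side. CACGTG was found in 8 of the 38 member genes (21.1%), the others being Nop2 and Utp20, against 11.4% of the 9621 tested genes that have a promoter in the table. Per promoter, the shares were 17.0% of 47 member promoters, 9.47% of promoters of tested genes and 7.15% of all promoters of the same length. The ETS-type motif CCGGAAG, searched on both strands, was in 31.9% of member promoters, 16.4% of those of tested genes and 8.86% of all. The C/EBP-ATF element TGATGCAA, also searched on both strands, was in 0 member promoters and in 0.587% of those of tested genes. A match in these letters is no evidence of binding. Rrp1b, Nop58, Gnl3, Nat10 and Heatr1, which rose at 12 h, have no CACGTG in this window.

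Each library held 3.54 to 7.58 M gene counts (median 5.93 M), and the members together took 3254 to 8608 counts of a library. Mitochondrial ribosomal RNA took 39.6% to 50.4% of the gene counts, 41.2% to 43.2% at 0 h and 44.8% to 50.4% at 12 h. Egfr was at 393 ± 63.9 CPM (SD, n = 3) in WT at 0 h and 82.4 ± 25.3 in KO. Egfr reached 335 CPM in the library labelled KO 1 h replicate 1, within the 332 to 407 CPM of the WT 1 h mice, which goes against the label. Apart from that library, every KO mouse was below every WT mouse of its time, at 42.95 to 271 CPM in KO and 203 to 633 CPM in WT over all times. On the third principal component over all tested genes, with 6.02% of the variance, WT 3 h replicates 2 and 3 stood at 35.6 and 35.2, whereas the other libraries lay between -22.4 and 11.2. Summed hepatocyte markers were at 30330 to 36980 CPM at 0 h against 37500 to 44610 CPM at 12 h, but of the 8 markers 4 rose and 1 fell in WT and 1 rose and 1 fell in KO. Kupffer cell, stellate cell and sinusoidal endothelial markers summed to 49.1 to 121, 123 to 189 and 144 to 174 CPM at 0 h against 54.0 to 85.3, 166 to 234 and 156 to 200 CPM at 12 h. Cholangiocyte markers summed to 18.8 to 24.6 CPM at 0 h against 33.9 to 221 CPM at 12 h, mostly Sox9, which rose from 10.6 ± 1.35 to 145 ± 54.2 CPM in WT, while Krt19 stayed at or under 0.556 CPM in these WT groups. Neutrophil markers summed to 0.497 to 1.89 CPM at 0 h against 3.37 to 11.1 CPM at 12 h, T, NK and B cell lists to at most 2.79 CPM at either time, and dividing-cell markers to at most 10.4 CPM. The part of these shifts in the results below was not tested. In bulk tissue, fewer cells of a type and less RNA per cell cannot be told apart.

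Few members passed in the first 3 h, and about 1 in 3 rose at 12 h in each genotype. In WT, 2 of 43 members rose at 1 h (4.09% of all 13204 tested genes rose), 2 at 3 h (7.28%) and 14 at 12 h (13.4%), by edgeR's quasi-likelihood test at a Benjamini-Hochberg adjusted p under 0.05. In KO, 1 rose at 1 h (3.95% of all genes), 2 at 3 h (5.11%) and 15 at 12 h (15.1%). In either direction, 3, 8 and 19 members had an unadjusted p under 0.05 in WT (1, 3 and 12 h) and 6, 14 and 23 in KO, against 19.9%, 26.8% and 36% of all genes in WT and 21.3%, 22.9% and 39.2% in KO. Few members fell: 0 in WT at 1 h (4.00% of all genes), 3 h (6.85%) and 12 h (12.2%), with 0 there by DESeq2 as well, and in KO 0 at 1 h (3.64%), 1 at 3 h (4.84%) and 1 at 12 h (13.7%). By adjusted p, the count of risers was thus close to the share over all genes or below it at 1 and 3 h. At 12 h it was 32.6% of the members in WT and 34.9% in KO. Every mouse lay above every 0 h mouse for 3, 4 and 19 members in WT (12.4%, 14.2% and 19.8% of all genes). In KO this was so for 7, 12 and 16 members (13.4%, 15% and 20.5%). Every mouse lay below for 2, 3 and 0 members in WT (12.3%, 14.4% and 20.1%). In KO this was 1, 1 and 1 (12.7%, 15.8% and 20.6%). By this measure KO at 3 h was above the share of all genes. The median log2 fold change of the members was 0.06, 0.14 and 0.42 in WT at 1, 3 and 12 h, and 0.04, 0.20 and 0.41 in KO. The early medians moved with single mice: without WT 0 h replicate 1 those of WT were 0.02 at 1 h and 0.04 at 3 h, without WT 0 h replicate 3 that of 1 h was 0.13, and in KO at 1 h it was 0.14 without the library labelled KO 1 h replicate 1 and 0.01 without KO 1 h replicate 3. The 12 h medians stayed between 0.37 and 0.44 in WT and between 0.30 and 0.50 in KO when each mouse was left out. Over all tested genes the median lay between -0.02 and 0.00. At 3 h, 29 members were on the positive side in WT and 33 in KO, and at 12 h, 37 in WT and 40 in KO. Within a genotype the 3 comparisons use one set of 0 h mice, and each time is of separate animals.

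TMM places the middle of the 13204 genes near 0, and the changes are given from that middle. Scaled by library size alone, the 12 h median over all genes was -0.37 in WT and -0.26 in KO, and the members' median was 0.06 in WT and 0.16 in KO. The distance between members and all genes was then 0.42 and 0.41, against 0.43 and 0.41 with TMM, but only 3 members rose and 3 fell in WT, and 10 rose and 1 fell in KO. Over all genes the higher share of the calls went from 52.4% to 17.6% in WT and from 52.3% to 26.3% in KO. The 12 h rises that this scaling ended were those of Noc3l, Wdr43, Polr1c, Gnl3, Heatr1, Ddx21, Nop58, Utp14a, Nop14, Ltv1 and Rrs1 in WT and of Noc3l, Pes1, Gar1, Nop56 and Nat10 in KO. Testing with no filter on low counts ended those of Polr1c, Nop58, Utp14a, Nop14, Ltv1 and Rrs1 in WT and of Noc3l, Pes1, Gar1, Nop56 and Nat10 in KO.

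The WT 12 h count also fell when single mice were left out, which leaves fewer mice in a group and makes calls harder to reach. It was 7 without WT 0 h replicate 1, 8 without WT 12 h replicate 3, 9 without WT 0 h replicate 3, WT 12 h replicate 1 or WT 12 h replicate 2. With WT 0 h replicate 2 left out it was 13. The KO 12 h count of risers was 11 to 18 when each mouse was left out. At 3 h in WT, 4 rose without WT 0 h replicate 3, 3 when WT 3 h replicate 1 was left out, and 1 without any of WT 0 h replicate 1, WT 3 h replicate 3, or the pair of WT 3 h replicates 2 and 3. With that pair left out, WT at 3 h is 1 mouse, which is assumed to vary like the other groups. At 3 h in KO, 5 rose without KO 3 h replicate 1, 1 without KO 3 h replicate 3, and 0 without KO 0 h replicate 1 or KO 3 h replicate 2. At 1 h in KO, 3 rose without the library labelled KO 1 h replicate 1, and 0 without KO 0 h replicate 1 or KO 1 h replicate 3. At 1 h in WT, 1 rose without WT 0 h replicate 1, WT 0 h replicate 2 or WT 1 h replicate 3. Leaving out WT 0 h replicate 3 or WT 1 h replicate 2 gave 0.

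**Figure D1:**
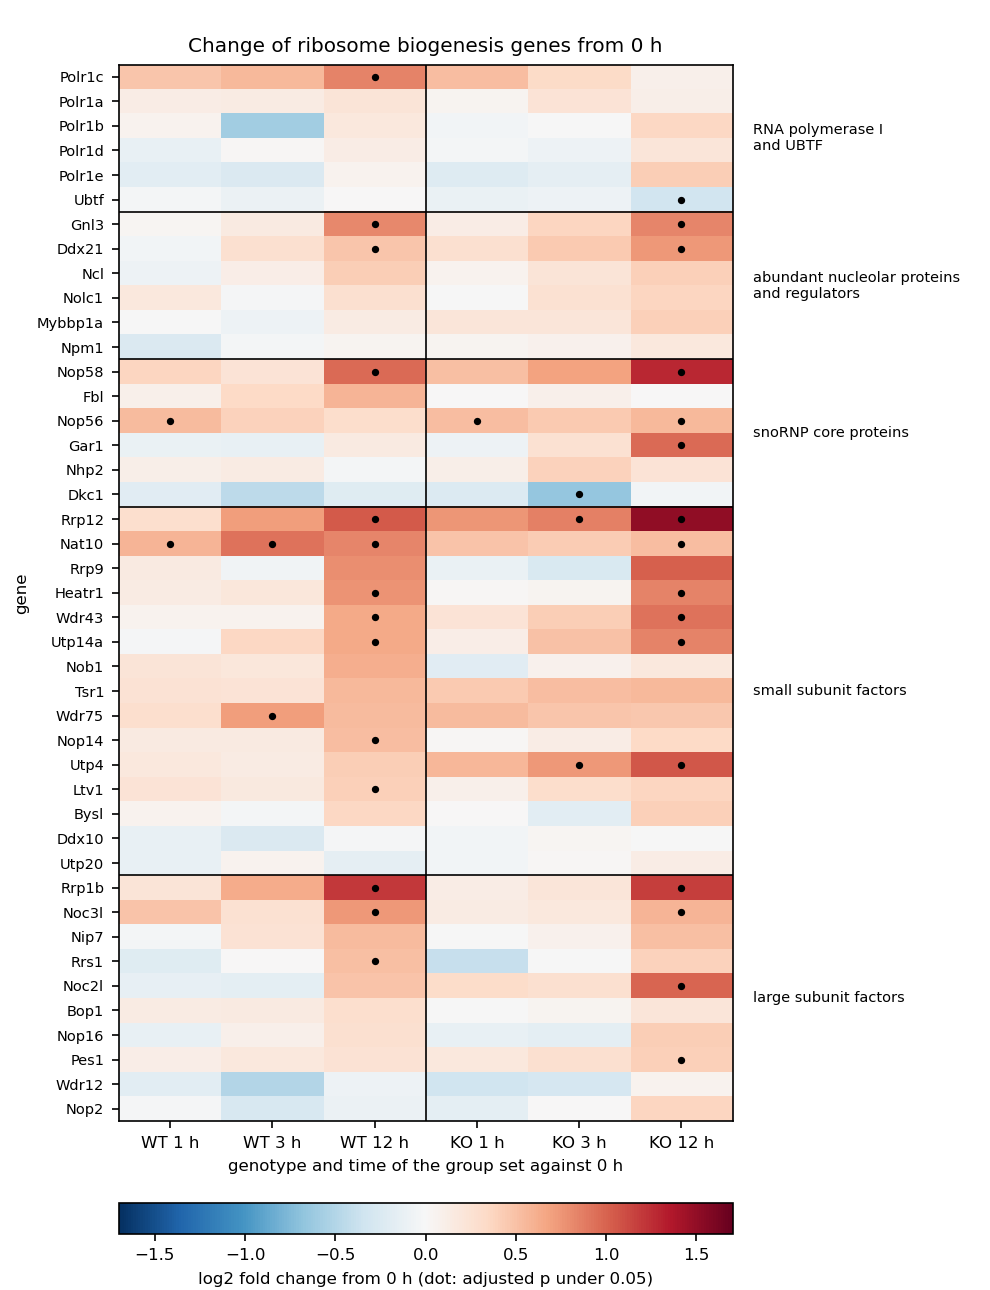
Log2 fold change from 0 h of each of the 43 genes (rows, by role and then by the WT 12 h value) in WT and KO at 1, 3 and 12 h (columns), with a dot where the adjusted p of edgeR was under 0.05. Dots gather in the 12 h columns, 14 in WT and 16 in KO, of which 1 in KO (Ubtf) is a fall.

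**Figure D2:**
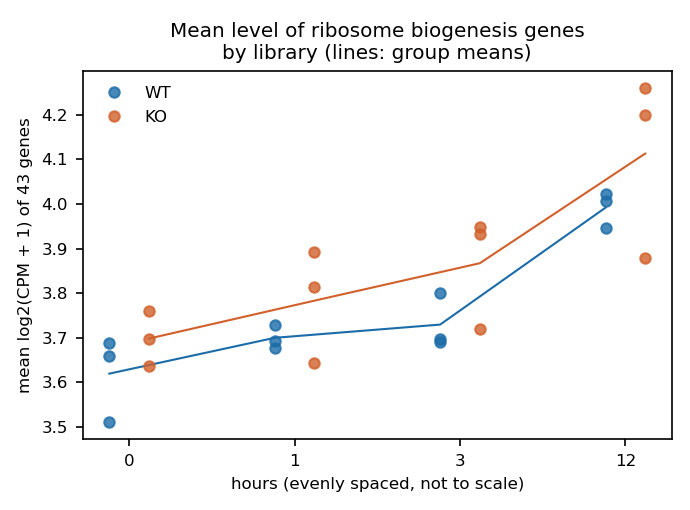
Mean of log2(CPM + 1) over the 43 genes in each library (points) with the mean of each group (lines), by time in hours on an evenly spaced axis. WT mice stand between 3.51 and 3.69 at 0 h and between 3.95 and 4.02 at 12 h, whereas KO 12 h replicate 3, at 3.88, lies under the other 12 h mice.

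Mouse by mouse, the mean level over the members was highest at 12 h in WT, whereas in KO the 12 h mice overlapped earlier ones. Mean log2(CPM + 1) was 3.51, 3.66 and 3.69 in WT at 0 h and 4.01, 3.95 and 4.02 at 12 h, so the WT groups did not overlap. The KO values were 3.64, 3.76 and 3.70 at 0 h and 4.26, 4.20 and 3.88 at 12 h. At 1 h the values were 3.68, 3.73 and 3.69 in WT and 3.64, 3.81 and 3.89 in KO. KO 12 h replicate 3 lay above the KO 0 h mice but under KO 1 h replicate 3 and KO 3 h replicates 2 and 3. The lowest of the KO 12 h mice, replicate 3, was also the library with the fewest gene counts, 3.54 M, and the highest share of mitochondrial ribosomal RNA, 50.4%. Without it 18 members rose in KO at 12 h. At 3 h, KO mice stood at 3.72, 3.95 and 3.93 and WT mice at 3.70, 3.69 and 3.80, so that KO 3 h replicate 1 was within the KO 0 h range and the other 3 h mice lay at the top of their 0 h range or above it.

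Of the 6 genes of the polymerase I group, 1 rose at 12 h in WT (13.4% of all genes) and 1 fell at 12 h in KO (13.7%). Polr1c, which encodes a subunit shared with RNA polymerase III, was at 3.22, 1.47 and 5.596 CPM in WT at 0 h and 5.06, 6.95 and 7.26 at 12 h, a log2 fold change of 0.84 ± 0.31 (SE, adjusted p = 0.0478). Its WT groups overlapped, and the call was lost without any 1 of 4 libraries (WT 0 h replicates 1 and 2, WT 12 h replicates 2 and 3) and under 7 of 9 other settings run, DESeq2 among them. In KO its change at 12 h was 0.09 ± 0.32.

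Ubtf, the architectural factor of ribosomal RNA genes, went the other way in KO. It was at 44.6, 52.2 and 46.3 CPM at 0 h against 39.3, 36.9 and 38.1 at 12 h, with no overlap, a log2 fold change of -0.33 ± 0.12 (adjusted p = 0.0313). The call was lost without any 1 of 5 libraries (KO 0 h replicates 2 and 3 and each KO 12 h mouse), with DESeq2, with gene-strand counts and in a fit of the compared groups alone. In WT Ubtf stood at 46.2 ± 5.01 CPM at 0 h against 46.4 ± 3.46 at 12 h. Polr1a, the largest subunit, was at 19.8 ± 3.01 CPM at 0 h against 23.0 ± 0.748 at 12 h in WT, and at 22.8 ± 0.548 and 24.0 ± 7.31 in KO, neither change passing the test. Polr1d and Polr1e did not pass in any of the 6 responses.

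Polr1b, which encodes the second largest subunit, is the 1 member called between the genotypes. At 3 h it was at 4.68, 3.45 and 3.00 CPM in WT and at 5.15, 8.28 and 8.25 in KO, so that every KO mouse lay above every WT mouse. This was so for 8 of 43 members at 3 h (7.63% of all genes), and the reverse for 0 (7.89%). The lower WT values, of replicates 2 and 3, came from libraries in which red blood cell markers summed to 252 and 331 CPM, against 80.1 in WT 3 h replicate 1 and 42.2 to 59.3 in KO. Of these markers 3 of 5 were called lower in KO. Kupffer cell markers summed to 54.9, 89.6 and 130 CPM in WT and 44.7 to 57.9 in KO, with 0 of 7 called and 5 at an unadjusted p under 0.05, and the part of either in the Polr1b difference was not tested. The log2 difference was 0.92 ± 0.23 with a 95% interval of 0.45 to 1.40 (adjusted p = 0.0424). The call was lost without WT 3 h replicates 2 and 3, singly or together, without KO 3 h replicate 2 or 3, with the replicate number as a block and in a fit of the compared groups alone, and the highest adjusted p over single leave-outs was 0.35. At the other times KO was at 7.13 ± 1.66, 6.96 ± 0.544 and 9.25 ± 0.600 CPM and WT at 5.73 ± 0.523, 5.91 ± 0.816 and 6.42 ± 1.03 (0, 1 and 12 h), with no call.

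Among the abundant nucleolar proteins, Gnl3 and Ddx21 rose at 12 h in both genotypes and the other 4 genes passed in no response. The share of all genes that rose at 12 h was 13.4% in WT and 15.1% in KO. Gnl3 encodes nucleostemin, a nucleolar GTP-binding protein of growing and dividing cells. It was at 17.9, 17.4 and 21.9 CPM in WT at 0 h and 30.05, 30.01 and 40.5 at 12 h, a log2 fold change of 0.81 ± 0.17 (adjusted p = 0.000471). In KO it was at 19.8, 20.7 and 23.6 CPM at 0 h against 34.6, 47.4 and 31.1 at 12 h, a change of 0.83 ± 0.16 (adjusted p = 0.000256). In both genotypes each 12 h mouse was above each 0 h mouse, and both calls held without any single library.

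Ddx21, an RNA helicase that links polymerase I transcription to processing, was at 49.4, 61.6 and 55.3 CPM in WT at 0 h and 75.0, 79.5 and 75.5 at 12 h (0.47 ± 0.15, adjusted p = 0.0179). Its KO mice were at 44.2, 54.5 and 52.8 CPM at 0 h against 96.1, 95.6 and 58.7 at 12 h (0.73 ± 0.15, adjusted p = 0.000327). The groups did not overlap in either genotype, although KO 12 h replicate 3 lay close to the 0 h mice, and the WT call was lost without WT 0 h replicate 1, WT 0 h replicate 3 or WT 12 h replicate 2. Ncl, which encodes nucleolin, was at 266, 444 and 261 CPM in WT at 0 h and 446, 436 and 413 at 12 h, and the change of 0.42 ± 0.17 did not pass (adjusted p = 0.0765). A single WT 0 h mouse, replicate 2, lay among the 12 h values, and in KO Ncl gave 0.41 ± 0.17 (adjusted p = 0.0764). Mybbp1a, a nucleolar repressor protein, was at 27.2 ± 5.53 and 30.3 ± 0.735 CPM in WT (0 and 12 h) and at 27.8 ± 2.23 and 36.7 ± 9.78 in KO, with no call. Npm1, or nucleophosmin, was the flattest at 0.04 ± 0.12 in WT and 0.18 ± 0.12 in KO at 12 h. Npm1 has near-identical pseudogenes and multimapping reads were not counted, so its level is uncertain.

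Of the 6 snoRNP core proteins, Nop58 rose at 12 h in both genotypes and Nop56 and Gar1 in KO. For all genes the share of risers was 13.4% in WT and 15.1% in KO. Nop58, of the box C/D particles, was at 26.4, 47.7 and 33.2 CPM in WT at 0 h and 67.1, 62.5 and 77.8 at 12 h, a log2 fold change of 0.97 ± 0.32 (adjusted p = 0.0323). In KO it went from 28.97, 36.1 and 35.3 CPM to 118, 77.6 and 46.8, a change of 1.28 ± 0.31 (adjusted p = 0.00531). Neither genotype overlapped, but the 3 KO mice at 12 h differed widely among themselves, with replicate 3 lowest again. The WT call held only without WT 0 h replicate 2, and the KO call held without any single library.

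Nop56, the paralog of Nop58, was an early riser. It was at 15.1, 11.8 and 14.1 CPM in WT at 0 h and 18.5, 23.2 and 18.5 at 1 h (0.54 ± 0.16, adjusted p = 0.0279), and at 13.8, 18.8 and 15.5 in KO at 0 h and 22.6, 23.0 and 23.7 at 1 h (0.53 ± 0.15, adjusted p = 0.0274). The 1 h mice lay above the 0 h mice in both genotypes, the first of the KO values being that of the library labelled KO 1 h replicate 1. These calls were lost without WT 0 h replicates 2 or 3 or WT 1 h replicate 2, and without KO 0 h replicates 1 or 3 or KO 1 h replicates 2 or 3. At 12 h Nop56 was called in KO alone (0.56 ± 0.16, adjusted p = 0.00969), against 0.30 ± 0.17 in WT (adjusted p = 0.214), and the difference of the 2 responses, 0.26 ± 0.24, did not pass (adjusted p = 0.764). The KO 12 h call was lost without KO 0 h replicate 1 or KO 12 h replicate 1.

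Of the box H/ACA proteins, Gar1 rose in KO at 12 h, from 3.01, 3.73 and 2.48 CPM to 8.21, 5.90 and 3.49 (0.96 ± 0.34, adjusted p = 0.0302). The groups overlapped through KO 12 h replicate 3, and the call was lost without KO 0 h replicates 1 or 3 or KO 12 h replicates 1 or 2. Gar1 stood at 3.00 ± 0.593 and 3.29 ± 0.761 CPM in WT at 0 and 12 h. Dkc1, the pseudouridine synthase of these particles, was the member that fell, at 3 h in KO, from 14.6, 11.6 and 11.6 CPM to 7.65, 9.37 and 7.16 (-0.65 ± 0.19, adjusted p = 0.0261) with no overlap. In WT its 3 h change was -0.45 ± 0.19 (adjusted p = 0.123), and at 12 h Dkc1 was back near its 0 h level in KO, at 11.8 ± 4.06 CPM. The Dkc1 call was lost without KO 0 h replicates 1 or 2 or KO 3 h replicates 1 or 3. Fbl, the methyltransferase of box C/D particles, and Nhp2 passed in no response.

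Of the small subunit factors, 7 of 15 rose in WT (13.4% of all genes) and 6 of 15 in KO (15.1%) at 12 h. Wdr43, Utp14a, Heatr1, Rrp12 and Nat10 were called in both genotypes. Rrp12, a repeat protein of pre-ribosome maturation and export, was at 4.38, 6.94 and 4.93 CPM in WT at 0 h and 8.54, 11.4 and 12.4 at 12 h (1.04 ± 0.27, adjusted p = 0.00383). In KO it went from 4.27, 5.67 and 6.46 CPM to 14.9, 17.4 and 14.3 (1.50 ± 0.25, adjusted p = 2.5e-05), the largest change of any member in these fits. No 12 h mouse overlapped a 0 h mouse in either genotype, and both calls held without any single library and under library-size scaling alone.

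Rrp12 was also above its 0 h range earlier in KO. It was at 7.36, 13.1 and 10.1 CPM at 3 h (0.86 ± 0.25, adjusted p = 0.0226), and at 7.32, 8.11 and 12.2 at 1 h (0.75 ± 0.24, adjusted p = 0.0517). In WT the 3 h value was 0.72 ± 0.25 (adjusted p = 0.0569). The KO 3 h call was lost without KO 0 h replicates 1 or 2 or KO 3 h replicates 2 or 3.

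Heatr1, Wdr43, Wdr75 and Utp4 belong to the UTP-A complex, which binds the growing precursor first and is needed for its transcription. Heatr1 was flat at 14.5 ± 1.98, 16.0 ± 1.46 and 16.5 ± 2.90 CPM in WT through 3 h, and stood at 25.3, 22.2 and 26.97 at 12 h (0.77 ± 0.17 from 0 h, adjusted p = 0.00104). KO mice were at 17.5 ± 1.26, 17.7 ± 4.10 and 18.3 ± 3.44 CPM through 3 h and at 32.8, 32.9 and 28.6 at 12 h (0.85 ± 0.16, adjusted p = 0.000195). Every 12 h mouse exceeded every earlier mouse of its genotype, and both calls held without any single library.

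Wdr43 rose from 34.03, 57.6 and 41.6 CPM to 59.8, 71.1 and 75.5 in WT at 12 h (0.65 ± 0.19, adjusted p = 0.0118) and from 35.9, 48.4 and 38.9 to 88.5, 76.4 and 68.8 in KO (0.93 ± 0.19, adjusted p = 0.000479). The groups did not overlap, although WT 0 h replicate 2 came close, and the WT call was lost without WT 0 h replicate 1, WT 0 h replicate 3 or WT 12 h replicate 3. Utp4, known as cirhin, was at 4.43, 5.82 and 5.96 CPM in KO at 0 h, 8.24, 10.2 and 9.03 at 3 h (0.74 ± 0.20, adjusted p = 0.0156) and 12.3, 12.8 and 8.38 at 12 h (1.05 ± 0.21, adjusted p = 0.000295). All KO mice at 3 and 12 h lay above those at 0 h, and the 3 h call was lost without KO 0 h replicate 1 or KO 3 h replicate 2. In WT Utp4 went from 6.79 ± 1.09 to 9.11 ± 2.15 CPM at 12 h, which did not pass (adjusted p = 0.156). The difference of the Utp4 responses was 0.64 ± 0.30 with a 95% interval of 0.03 to 1.25, and after adjustment it did not pass (adjusted p = 0.467). Wdr75 passed once, at 3 h in WT (0.72 ± 0.20, adjusted p = 0.0162), where all 3 mice, at 11.0, 11.0 and 12.5 CPM, exceeded the 0 h mice at 6.45, 5.89 and 8.39. The Wdr75 call was lost without WT 0 h replicates 1 or 2, without WT 3 h replicate 3, without the pair of WT 3 h replicates 2 and 3, and under library-size scaling.

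Nat10, the acetyltransferase of small subunit ribosomal RNA, was called at all 3 times in WT, the only member of which this was so. It was at 11.1, 12.2 and 9.86 CPM at 0 h, 14.9, 18.1 and 16.4 at 1 h, 23.0, 14.2 and 24.3 at 3 h and 19.3, 19.7 and 19.7 at 12 h. The log2 fold changes were 0.58 ± 0.17 (adjusted p = 0.0285), 0.92 ± 0.17 (adjusted p = 0.000288) and 0.84 ± 0.18 (adjusted p = 0.000691). Each WT group after 0 h lay wholly above 0 h. The 3 h and 12 h calls held without any single library, and the 1 h call was lost without WT 0 h replicates 1 or 3 or WT 1 h replicates 2 or 3. In KO, Nat10 gave 0.49 ± 0.16 at 1 h (adjusted p = 0.0645), 0.43 ± 0.17 at 3 h (adjusted p = 0.107) and 0.53 ± 0.18 at 12 h (adjusted p = 0.0239), with mice at 11.9, 11.8 and 14.2 CPM at 0 h against 18.2, 17.2 and 19.6 at 12 h. The KO 12 h call was lost without KO 0 h replicates 1 or 2 or KO 12 h replicates 1 or 3.

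Of the other small subunit factors, Utp14a, an activator of a processome helicase, rose by 0.65 ± 0.20 in WT (adjusted p = 0.0169) and by 0.84 ± 0.20 in KO (adjusted p = 0.00185). Nop14 (0.52 ± 0.17, adjusted p = 0.0248) and Ltv1, a late assembly factor (0.41 ± 0.15, adjusted p = 0.0467), rose in WT, and their KO values of 0.34 ± 0.17 and 0.36 ± 0.15 did not pass. The Ltv1 call was lost whichever mouse was left out and with DESeq2, that of Nop14 without WT 0 h replicates 1 or 3 or WT 12 h replicate 1, and that of Utp14a in WT without WT 12 h replicate 3. Rrp9, of the lowest counts among the members, was at 0.79 ± 0.47 in WT and 1.02 ± 0.41 in KO at 12 h, both short of the threshold. Utp20, Ddx10, Nob1, the nuclease of the last cut, Bysl and Tsr1 passed in no response. For Bysl and Tsr1, 43.07% and 30.76% of the counts given a strand had that of the gene, against 85% or more in the other 41 genes, so their values may hold reads of genes on the opposite strand.

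The large subunit factors gave 3 risers of 10 in WT (13.4% of all genes) and 4 in KO (15.1%) at 12 h. Rrp1b, a nucleolar protein of pre-ribosome processing, was at 4.12, 5.04 and 6.93 CPM in WT at 0 h, 7.85, 7.72 and 9.47 at 3 h and 13.0, 11.7 and 12.7 at 12 h (1.20 ± 0.25 at 12 h, adjusted p = 0.000608). In KO it was at 6.49, 6.27 and 6.33 CPM at 0 h, 6.62, 5.66 and 9.49 at 3 h and 11.4, 18.9 and 12.2 at 12 h (1.18 ± 0.24, adjusted p = 0.000405). The 12 h mice of both genotypes lay above all earlier ones of theirs, and both 12 h calls held without any single library and under library-size scaling alone.

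Noc3l, which moves pre-ribosomes through the nucleus, rose from 7.61, 6.52 and 8.53 CPM to 14.6, 13.6 and 10.4 in WT at 12 h (0.74 ± 0.21, adjusted p = 0.010) and from 7.76, 11.0 and 8.94 to 13.2, 17.7 and 9.78 in KO (0.58 ± 0.21, adjusted p = 0.0334). The KO groups overlapped, and the calls were lost without WT 12 h replicate 1 in WT and without KO 0 h replicates 1 or 3 or KO 12 h replicates 1 or 2 in KO, the last also with gene-strand counts and in a fit of the compared groups alone. Its partner Noc2l was at 13.5, 14.9 and 15.0 CPM in KO at 0 h and 35.8, 25.3 and 25.1 at 12 h (0.99 ± 0.20, adjusted p = 0.000502), with no overlap and a call that held without any single library. In WT Noc2l was at 16.4, 29.9 and 12.8 CPM at 0 h against 29.1, 26.1 and 25.2 at 12 h (0.48 ± 0.20, adjusted p = 0.0795), where WT 0 h replicate 2 was above all the 12 h mice. Of the PeBoW complex, Pes1 rose in KO, from 17.7, 17.8 and 16.3 CPM to 20.8, 25.3 and 22.4 (0.41 ± 0.14, adjusted p = 0.022), and its partners Bop1 and Wdr12 passed in no response. The Pes1 call was lost without KO 0 h replicate 3 or KO 12 h replicate 2. Rrs1 rose in WT (0.51 ± 0.19, adjusted p = 0.0421), a call lost whichever mouse was left out and with DESeq2, and Nop2, Nop16 and Nip7 passed in no response.

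**Figure D3:**
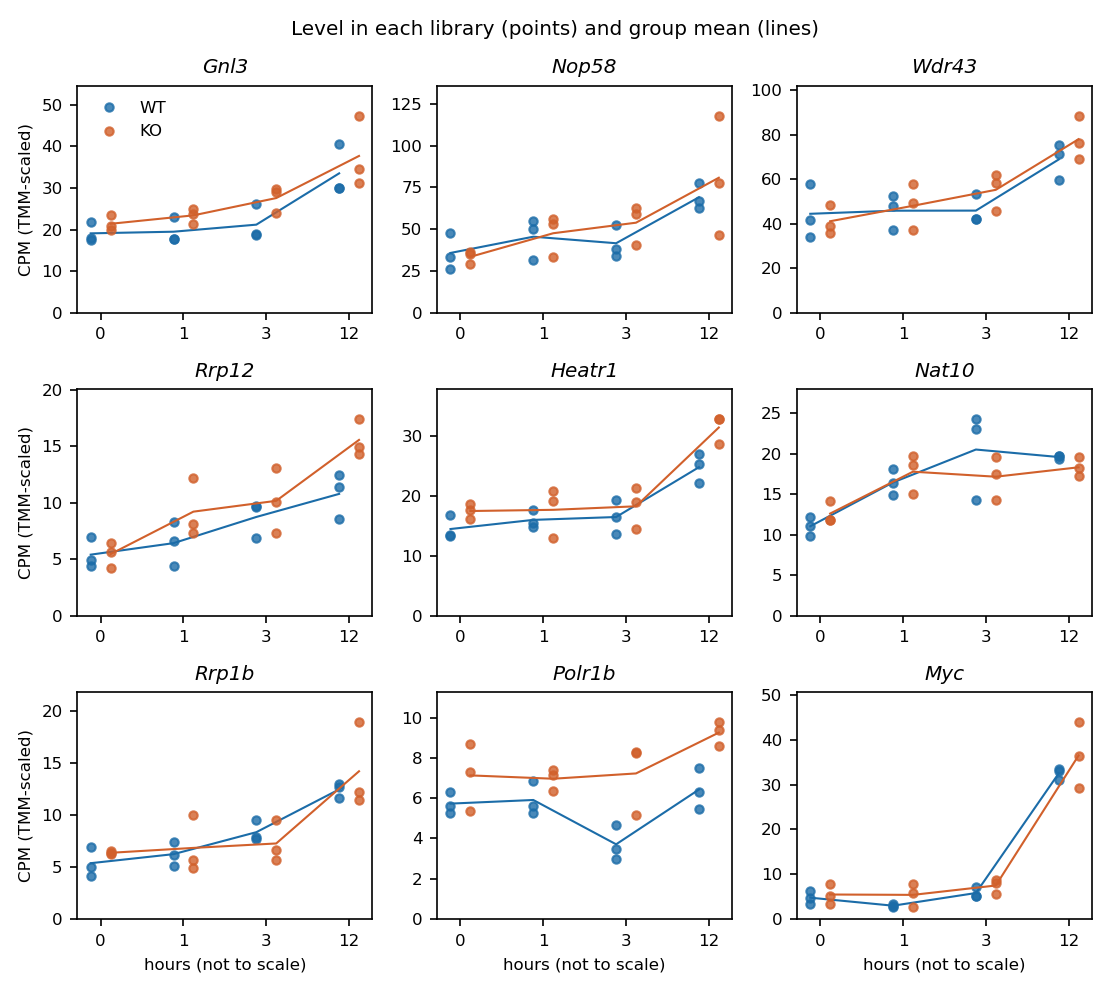
CPM of 8 members and of Myc in each mouse (points) and the group means (lines) by time in hours, on an evenly spaced axis, WT in blue and KO in orange, each panel from 0. Heatr1, Gnl3 and Myc turn upward between 3 and 12 h, and Polr1b is lower in WT than in KO at 3 h. Nat10 is up from 1 h in WT, and its positive change at 1 h in KO did not pass the test.

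The step from 3 to 12 h held more calls than the step from 1 to 3 h, over all genes as well as among the members. Over all genes, 848 passed from 1 to 3 h in WT and 0 in KO, against 1691 and 1703 from 3 to 12 h. The members' shares of risers, given below, were near those of all genes. Between 1 and 3 h, 0 of 43 members passed in WT (6.42% of all genes, either direction) and 0 in KO (0% of all genes), with 4 and 2 members at an unadjusted p under 0.05 (19.6% and 7.26% of all genes) and 0 and 0 by DESeq2. Between 3 and 12 h, 5 members rose in WT (11.6%, against 7.43% of all genes) and 4 in KO (9.3%, against 7.84%), and 0 fell in either (5.38% and 5.06% of all genes), also by DESeq2. In WT these were Gnl3 (0.66 ± 0.17, adjusted p = 0.00619), Heatr1 (0.58 ± 0.17), Noc2l (0.65 ± 0.20), Wdr43 (0.59 ± 0.19) and Polr1b (0.77 ± 0.26), of which Polr1b was lost under 8 of 10 other settings run, DESeq2 among them. Leaving out single mice lost the Noc2l call in 6 of 6 cases, Polr1b in 5, Wdr43 in 4, Heatr1 in 3 and Gnl3 in 1. In KO they were Heatr1 (0.80 ± 0.17, adjusted p = 0.00108), Rrp1b (0.97 ± 0.24), Noc2l (0.72 ± 0.20) and Rrp9 (1.27 ± 0.43), of which Rrp9 was lost under 8 of 9 other settings run. Leaving out single mice lost Rrp9 in 4 of 6 cases, Noc2l in 2 and Rrp1b in 1. The median over all members was 0.28 in WT and 0.30 in KO, with 38 and 36 of 43 above 0, and over all genes it was -0.01 and 0.01. The WT count was 1 without WT 3 h replicates 2 and 3 together or without replicate 2 alone, 3 without WT 3 h replicate 3, 2 without WT 12 h replicate 1 or 2 and 0 without WT 12 h replicate 3. The KO count was 2 without KO 3 h replicate 1 or KO 12 h replicate 1, and 7 without KO 12 h replicate 3. Under library-size scaling alone the members' median for this step was 0.01 in WT and 0.05 in KO, and that of all genes -0.28 and -0.24.

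One member passed a test of genotype, Polr1b at 3 h. Between KO and WT, 0 of 43 members passed at 0 h (0.0151% of all genes), 0 at 1 h (0.492%), 1 at 3 h (0.977%) and 0 at 12 h (0.0530%), with 0, 2, 4 and 7 members at an unadjusted p under 0.05 (8.12%, 9.76%, 10.4% and 10.3% of all genes). DESeq2 gave the same 4 counts, and the 1 h count was 0 without the library labelled KO 1 h replicate 1 as well. In the difference of the KO and WT responses, 0 members passed at 1 h (0.454% of all genes), 0 at 3 h (0.151%) and 0 at 12 h (0.0227%), with 0, 2 and 2 at an unadjusted p under 0.05 (10.9%, 8.67% and 10.2% of all genes) and 0 by DESeq2 at each time. The median standard error of the 12 h difference of responses was 0.29, and its 95% interval lay within a log2 difference of 1 either way for 31 of 43 members. For KO against WT at single times the interval lay within these bounds for 42, 41, 38 and 34 members (0, 1, 3 and 12 h).

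Averaged over the 4 times, 0 members passed (0% of all genes, and 0 members by DESeq2), and 11 had an unadjusted p under 0.05, each with KO the higher. Over all genes, 7.04% had an unadjusted p under 0.05. The smallest adjusted p was 0.285, for Polr1b (0.50 ± 0.11), and the next were Nop56 (0.29 ± 0.08, adjusted p = 0.521) and Utp20 (0.23 ± 0.07, adjusted p = 0.532). The members' median was 0.10, with 33 of 43 above 0, and for all 43 the 95% interval lay within a log2 difference of 1.

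**Figure D4:**
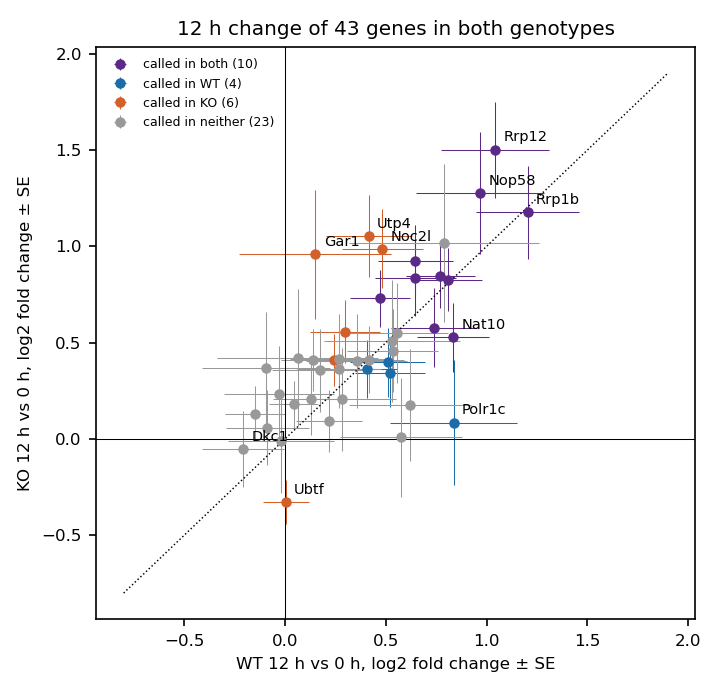
Log2 fold change from 0 h to 12 h of the 43 genes in WT (horizontal) and KO (vertical), with bars of 1 standard error and a dotted line of equality. Genes called in both genotypes (purple, 10) lie in the upper right, and Ubtf, lower in KO, and Polr1c, higher in WT, lie farthest below the line among the called genes.

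At 12 h, 10 members rose in both genotypes: Gnl3, Ddx21, Nop58, Wdr43, Utp14a, Heatr1, Rrp12, Nat10, Rrp1b and Noc3l. They are 71.4% of the 14 WT risers and 66.7% of the 15 KO risers, and the 2 responses share no mice. Over all tested genes, 1225 rose in both, 69.1% of the 1772 WT risers and 61.6% of the 1989 KO risers. In all, 36 of 43 members were above 0 in both. Across the 43 members the WT and KO changes had a Pearson correlation of 0.676 and a Spearman correlation of 0.615, given as a description, since genes of a library share its depth and scaling. Members called in a single genotype were not shown to differ between genotypes, since no difference of responses passed.

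Myc itself rose late. It was at 3.35, 6.31 and 4.66 CPM in WT at 0 h, 2.95, 2.71 and 3.31 at 1 h, 7.16, 5.08 and 5.21 at 3 h and 31, 33.1 and 33.5 at 12 h, a log2 fold change of 2.81 ± 0.27 at 12 h (adjusted p = 1.19e-08). KO mice were at 3.32, 7.91 and 5.21 CPM at 0 h against 44.0, 29.2 and 36.3 at 12 h (2.72 ± 0.26, adjusted p = 1.07e-08). The 12 h mice lay far above all earlier ones in both genotypes, and the difference of the responses was -0.09 ± 0.38. Of the 11 tested genes of the MYC network, 2 rose and 2 fell in WT and 3 rose and 1 fell in KO at 12 h. The shares of all genes were 13.4% and 12.2% in WT and 15.1% and 13.7% in KO. Mxd1, which encodes a MAX partner that opposes MYC, rose as well (1.12 ± 0.22 in WT, 0.99 ± 0.24 in KO), and Mga, another MAX partner, fell in WT (-0.53 ± 0.13).

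Further genes of the pathway, listed by function, gave mixed counts at 12 h. Of all tested genes, 13.4% rose and 12.2% fell in WT, and 15.1% rose and 13.7% fell in KO. The medians of all tested genes were -0.011 and -0.003. Of 49 other large subunit factors, 17 rose in WT and 16 in KO, and their median was 0.31 in both. Zfp622, which acts in the last cytoplasmic steps, gave 1.21 ± 0.17 in WT and 1.04 ± 0.19 in KO, the nucleolar GTPase Gtpbp4 0.70 ± 0.14 and 0.73 ± 0.13, and the helicase Ddx51 1.23 ± 0.28 and 1.60 ± 0.28. Zfp622 and Ddx51 had already risen at 1 h in KO, by 0.98 ± 0.17 and 1.22 ± 0.26. Both were also called at 3 h in WT and in KO. The Ddx51 call in WT at 3 h was lost without WT 0 h replicates 1 or 3 or WT 3 h replicate 1. The Ddx51 calls in WT at 3 and 12 h and in KO at 1 and 3 h were lost with gene-strand counts. Of 43 other small subunit factors, 4 rose in WT, and 7 rose and 2 fell in KO, with medians of 0.13 and 0.27. Their risers were thus under the share of all genes in WT and near it in KO. Nol10 (0.74 ± 0.22 and 1.31 ± 0.21), Mphosph10 (0.57 ± 0.18 and 0.59 ± 0.17) and Ngdn (0.83 ± 0.26 and 0.69 ± 0.26) were among those called in both. Library-size scaling ended the WT calls of these 3 genes and of Gtpbp4. The Ngdn call in KO held under 4 of 9 other settings and was lost with DESeq2. In 6 single leave-outs, the WT call of each of these 3 genes held in 3. Their KO calls held in 6 (Nol10), 5 (Mphosph10) and 2 (Ngdn). Of 8 other polymerase I transcription genes, 1 rose and 1 fell in WT and 2 rose in KO: Taf1d, of the promoter selectivity factor, was at 29.8 ± 0.174 and 64.2 ± 7.83 CPM in WT (0 and 12 h) and 27.5 ± 2.35 and 82.6 ± 5.06 in KO, and the terminator protein gene Ttf1 fell in WT (-0.67 ± 0.22). Of the 13 nuclear exosome genes, Mphosph6 alone was called, as a rise in KO (0.87 ± 0.34) that was lost whichever mouse was left out.

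**Figure D5:**
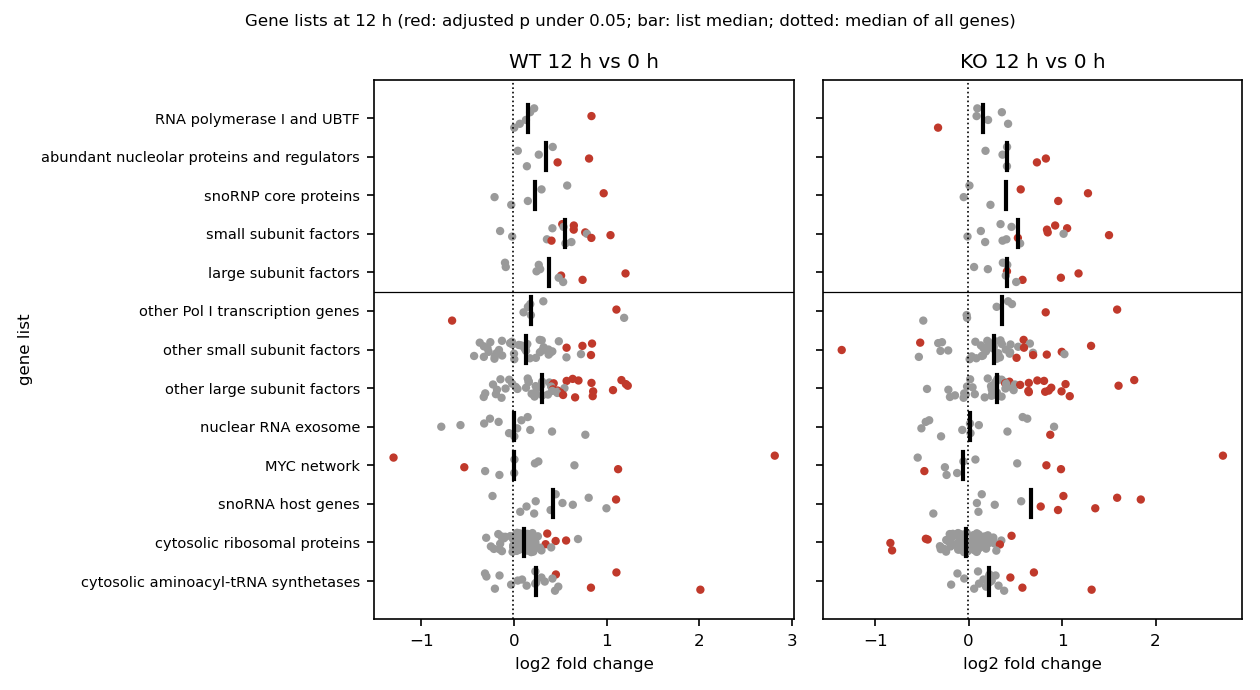
Log2 fold change from 0 h to 12 h in WT (left) and KO (right) of the genes of each list, members by role above the line and the other lists below it, with red points for an adjusted p under 0.05 and a bar at the list's median. The bars of small subunit factors lie right of the dotted median of all genes in both panels, whereas those of cytosolic ribosomal proteins lie close to it.

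Ribosomal proteins are what the factors assemble onto ribosomal RNA, and few of their genes were called. Multimapping reads were not counted, so the level and change of any of these genes with near-identical copies are uncertain. Of 79 cytosolic ribosomal protein genes, 4 rose in WT with a median of 0.11, and 2 rose and 4 fell in KO with a median of -0.03. Among all tested genes, 13.4% rose in WT, and 15.1% rose and 13.7% fell in KO. Rpl30 went from 27.8 ± 3.39 to 38.1 ± 3.04 CPM in WT (adjusted p = 0.010) and from 31.4 ± 2.84 to 29.9 ± 2.87 in KO (adjusted p = 0.73), and library-size scaling ended the WT call. Of 12 snoRNA host genes, 1 rose in WT and 6 in KO, with medians of 0.42 and 0.67, and Snhg5 rose in both (1.10 ± 0.28 and 1.84 ± 0.29). Of 20 cytosolic tRNA synthetase genes, 4 rose in each genotype, with medians of 0.24 and 0.22. Wars1 (2.01 ± 0.23 and 1.32 ± 0.23) and Tars1 (0.83 ± 0.11 and 0.58 ± 0.11) were among them and had risen by 1 h in both genotypes, by 1.20 ± 0.23 and 0.67 ± 0.10 in WT. With gene-strand counts the Wars1 change at 1 h was -0.31 in WT and -0.11 in KO and its KO 12 h call was lost, so its counts may hold reads of the opposite strand. Mitochondrial mt-Rnr1, a ribosomal RNA that polymerase I does not make, was 0.57 ± 0.15 higher at 12 h in both, a call that library-size scaling ended. These lists were not compared with the members by a test.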

How the data were processed

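Whole-liver RNA of 24 mice was measured by bulk RNA sequencing. Per the submitters' processing notes, the authors made raw counts per gene with STAR on mm39 and deposited them. No STAR version or gene annotation is named in the sources used here. The column of counts without regard to strand was used, and multimapping and ambiguous reads are not in it. The lines that name no gene (77.5% to 82.4% of reads) were left out. The filterByExpr rule of edgeR 4.0.16 (R 4.3.3) kept 13204 genes, which were scaled by TMM and fitted by its quasi-likelihood model with robust dispersions and 1 mean for each of 8 groups. Two-sided F-tests were adjusted by Benjamini-Hochberg over all genes at 0.05, and SE is the fold change over the root of F. The fit was also run on simulated counts in which equal numbers of genes rose and fell in a single group, which does not test the scaling. Nothing in the labels ties replicate numbers to a shared litter or day. Alternatives were RLE, library size, other filters, gene-strand counts, DESeq2 1.42.0, the compared groups alone, a replicate block, leaving out libraries, and, added after the data were seen, library size without mitochondrial ribosomal RNA. The members, the lists and the rule for named genes (the highest level and the 4 smallest p per role, 3 genes per other list) were chosen with earlier results of these data known. Some genes that the rule names are not reported here. RefSeq promoters are of GRCm38.p6, which differs from the files' mm39, and were used for sequences alone.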

Additional observations from a re-analysis of the deposited data

How the results depend on the processing

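No call of a member reversed direction under the alternatives run: of the values recomputed for members with a call, 534 stayed past the threshold and 194 did not. Members without a call did change sign: with library size alone, 14 of 43 at 12 h in WT and 10 in KO lay on the other side of 0. Among the genes of other lists, Wars1 turned with gene-strand counts to -0.306 at 1 h and -0.029 at 3 h in WT and to -0.108 and -0.102 in KO. Counts of called members moved past 1.5 times as follows. Library size alone gave, at 3 h in WT, 1 riser in place of 2 and 1 fall in place of 0, at 12 h in WT 3 risers in place of 14 and 3 falls in place of 0, and from 3 to 12 h in WT 1 call, a fall, in place of 5 rises. Library size without the mitochondrial ribosomal RNA, chosen after seeing the data, gave at 3 h in WT 1 riser and 3 falls, at 12 h in WT 5 risers, from 1 to 3 h in WT 1 call in place of 0, and from 3 to 12 h in WT 3 calls. With no filter there were 9 risers at 12 h in WT, 2 at 1 h and 4 at 3 h in KO in place of 1 and 2, 3 calls from 3 to 12 h in WT, and 1 for genotype averaged over times in place of 0. The 1 CPM filter gave 2 risers at 1 h in KO and 3 calls from 3 to 12 h in WT. Gene-strand counts gave 4 risers at 3 h in KO, and no fall at 12 h in KO (0 in place of 1). DESeq2 gave 0 falls there too, as did the fit of the compared groups alone, which also gave 6 risers at 3 h in KO and 0 calls between genotypes at 3 h in place of 1. Without WT 3 h replicates 2 and 3, which leaves 1 mouse in that group and takes its spread from the others, 1 member rose at 3 h in WT, 1 passed from 3 to 12 h and 0 between genotypes at 3 h.

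With the replicate number as a block, 2 members rose at 1 h in KO, and 0 passed between genotypes at 3 h; at 12 h, 14 rose in WT and 16 in KO. Residuals of same-numbered libraries correlated at -0.168 to 0.183 (median 0.00952), and those of other numbers at -0.208 to 0.184 (median -0.00757). These ranges show no sign of pairing, but with 3 mice a group they cannot exclude a shared litter or day.

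Leaving out each library in turn gave 0 to 2 risers at 1 h, 1 to 4 at 3 h and 7 to 13 at 12 h in WT; 0 to 3, 0 to 5 and 11 to 18 in KO, with 0 to 1 falls at 3 h and at 12 h; 0 to 1 calls from 1 to 3 h and 0 to 4 from 3 to 12 h in WT, and 2 to 7 from 3 to 12 h in KO; and 0 to 1 for genotype at 3 h and averaged. Other counts of members called stayed at 0. Low counts limit genes of a few CPM such as Rrp9 and Gar1.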
